A study of Homo sapiens with 8 samples.

Results

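The 50 genes described here build and run mitosis and chromosome segregation, and they were taken by name from 19794 protein-coding genes, with earlier results of these data known. Their occupancy by RNA polymerase II (RNAPII) was read from ChIP-seq peak lists of MDA-MB-453, a human line of luminal-like breast cancer. Cells were treated for 4 h with vehicle or with 600 nM CDDD11-8, an inhibitor of the kinase CDK9, and 2 libraries per treatment came from consecutive passages of the cells. Cell line, RNAPII antibody and treatment time were the same in all 4 libraries, and each was compared with its own chromatin input when peaks were called. Of 11 luminal marker genes, 10 had a promoter peak in both vehicle libraries and EPCAM had none in any library. Of 8 genes of other cell types or receptors, 7 had no promoter peak in any library. COL1A1 had one with CDDD11-8 replicate 1.
CDK9 is the kinase of the elongation factor P-TEFb, which releases RNAPII from the pause that it makes shortly after initiation. When CDK9 is inhibited, RNAPII can remain near the promoter and fail to enter the gene body. Mitotic genes are transcribed mainly in G2 and M phase, through promoters that often carry a cell cycle homology region (CHR) and CCAAT boxes. The CHR is bound by the repressive DREAM complex in quiescent cells and by B-MYB and FOXM1 complexes in G2, and CCAAT boxes are bound by NF-Y.
The letters of these elements were searched on both strands in the 300 bases from 250 before to 50 after each transcription start site (TSS), in GRCh37. A CHR, here TTTGAA or TTCGAA, was found at 34 of the 50 mitotic genes (68.0%), compared with 13.7% of all promoters. CCAAT was found at 34 of 50 (68.0%, compared with 35.3% of all promoters), and 2 or more copies at 24 (48.0%, compared with 11.8%). Both elements were found at 26 mitotic genes, which is 52.0%, compared with 5.68% of all promoters. The E2F letters TTCGCGC or TTGGCGC were found at 7 (14.0%, compared with 6.46%) and a TATA box, TATAAA, at 3 of 50, compared with 10.0% of all promoters. Median GC content was 60.3% for the mitotic promoters and 62.0% for all promoters. At the start of the Ensembl canonical isoform, 42 of the 50 held a CHR (84.0%, compared with 12.7%). A match is a description of the letters and not evidence of binding. The 150 bases before the TSS are printed for 4 genes with a large decrease in gene body peaks and for CENPE and SMC2, which had almost none to lose. Capitals mark matches to the CHR, CCAAT and E2F letters in either orientation, and a CHR and a CCAAT box share a base at MKI67.
MKI67, chr10:129924688-129924837, minus strand: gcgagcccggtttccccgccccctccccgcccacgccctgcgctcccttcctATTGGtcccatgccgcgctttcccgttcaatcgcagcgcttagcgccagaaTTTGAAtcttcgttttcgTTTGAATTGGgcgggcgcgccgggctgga
ECT2, chr3:172468322-172468471, plus strand: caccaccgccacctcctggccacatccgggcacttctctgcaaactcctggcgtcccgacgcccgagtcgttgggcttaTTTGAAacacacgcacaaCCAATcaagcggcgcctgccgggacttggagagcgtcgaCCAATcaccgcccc
ASPM, chr1:197115825-197115974, minus strand: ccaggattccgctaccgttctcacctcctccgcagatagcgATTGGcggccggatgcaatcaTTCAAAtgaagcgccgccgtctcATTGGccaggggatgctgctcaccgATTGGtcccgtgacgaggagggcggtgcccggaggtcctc
TOP2A, chr17:38574149-38574298, minus strand: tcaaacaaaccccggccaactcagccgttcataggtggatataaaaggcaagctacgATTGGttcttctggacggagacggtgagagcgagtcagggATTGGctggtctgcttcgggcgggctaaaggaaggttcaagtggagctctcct
CENPE, chr4:104119603-104119752, minus strand: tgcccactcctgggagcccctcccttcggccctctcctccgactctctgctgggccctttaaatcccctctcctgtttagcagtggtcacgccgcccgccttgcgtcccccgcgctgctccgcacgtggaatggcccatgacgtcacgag
SMC2, chr9:106856391-106856540, plus strand: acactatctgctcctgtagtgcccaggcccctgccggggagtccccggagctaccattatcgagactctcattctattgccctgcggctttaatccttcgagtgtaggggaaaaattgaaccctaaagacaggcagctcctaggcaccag
The stretches before MKI67, ECT2 and ASPM hold both a CHR and CCAAT boxes. That of TOP2A holds 2 CCAAT boxes, and its CHR matches begin before the printed stretch, the nearer one running into its opening bases. No match was found in the 300 bases of CENPE or SMC2 at the start used here. These 6 genes are examples, and matches were not compared with the change in coverage over the 50 genes. KIF2C had no match either, and its gene body coverage, defined below, differed by −45.8 points. SGO1, KIF14 and KIF20B held both elements and had gene body coverage under 10% with vehicle.

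The libraries differed in ways that touch every value below. The vehicle lists held 78306 and 57493 peaks and the CDDD11-8 lists 25897 and 21842, after summits of the same region were joined. Pileup values rose in steps of 1 in the vehicle lists and of 0.74 and 0.96 in the CDDD11-8 lists, so the latter had been scaled down before peaks were called. The lists carry no read totals, so the depth behind a value is unknown, and a base outside a peak is one where RNAPII was not called rather than absent. The part of depth and scaling in the differences between treatments was not tested beyond the settings given below. The cells were profiled in bulk, so fewer cells with RNAPII on a gene and less RNAPII per cell cannot be told apart. With 2 against 2 libraries, a two-sided exact permutation test has 6 splits and cannot give a p-value below 0.33. A gene is therefore called lower or higher when both CDDD11-8 libraries lie below or above both vehicle libraries, and the share of all genes called in the same way is given beside the main counts.

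RNAPII was present at the promoters of nearly all mitotic genes, with and without CDDD11-8. A promoter peak, one within 300 bp of the TSS, was called in all 4 libraries at 46 of the 50 genes, compared with 49.0% of all protein-coding genes. The 4 others were NUF2 and SPC25, subunits of the NDC80 complex that holds microtubules at the kinetochore, KIF14, a motor of the central spindle and midbody, and NUSAP1, a microtubule-bundling protein. NUF2 and SPC25 had no promoter peak in any library, KIF14 lacked one in vehicle replicate 1, and NUSAP1 lacked one in vehicle replicate 1 and CDDD11-8 replicate 2. These calls depended on the annotated start. The longest isoform, used here, starts 55.4 kb from the canonical start for NUF2, 22.8 kb for SPC25 and 12.1 kb for NUSAP1. At the canonical starts all 3 had a promoter peak in all 4 libraries, and the count was 49 of 50, with KIF14 the exception.

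Promoter peaks were wider with CDDD11-8. The median width over the 46 genes was 2862 and 3022.5 bp with vehicle and 5058.5 and 4470.5 bp with CDDD11-8. The difference between treatments was 1822 bp, larger than the SD of 113 bp with vehicle and 416 bp with CDDD11-8 (n = 2 each). Both CDDD11-8 libraries had the wider peak at 35 of 46 genes (76.1%), compared with 64.4% of the 9702 genes whose promoter peak was called in every library. It was narrower in both at 0 of 46, compared with 9.42%. At the other 11 genes the treatments overlapped, among them AURKB, CDK1, CCNB1 and TPX2. With regions within 1 kb merged, AURKB, CDK1, CCNB1 and HMMR were narrower in both CDDD11-8 libraries.
The extra width lay on both sides of the TSS. The peak reached further upstream in both CDDD11-8 libraries at 39 genes (background 66.5%) and less far at 1 (background 7.14%). It reached further downstream at 29 (background 59.3%) and less far at 0 (background 9.75%). The median reach downstream was 1532 and 1720.5 bp with vehicle and 2675 and 2441 bp with CDDD11-8. A start on the opposite strand lay within 1 kb upstream at 9 of the 50 genes, so part of the upstream signal there can belong to a neighbour, such as CSTF1 at AURKA and IDE at KIF11.
The widest relative change was at ESCO2, the acetyltransferase that locks cohesin onto replicated DNA, where the peak was 1198 and 766 bp with vehicle and 5798 and 5319 bp with CDDD11-8. CENPF, a large coiled-coil protein of the outer kinetochore, followed with 816 and 1766 bp and then 6064 and 3375 bp. At BUB1B, which encodes the checkpoint protein BUBR1, the widths were 1714 and 1654 bp and then 4976 and 4423 bp. The groups did not overlap at any of these 3 genes. CCNB1, which encodes the cyclin of the entry into mitosis, was the reverse case in its spread, with vehicle widths of 8111 and 3020 bp on either side of 5949 and 4952 bp. At AURKA, the kinase of centrosome maturation, the peak was 5215 and 4243 bp wide with vehicle and 8110 and 7553 bp with CDDD11-8. At PLK1, a kinase used throughout mitosis, it was 3019 and 2930 bp and then 6002 and 5586 bp. In both kinase genes the groups stood apart.

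**Figure D1:**
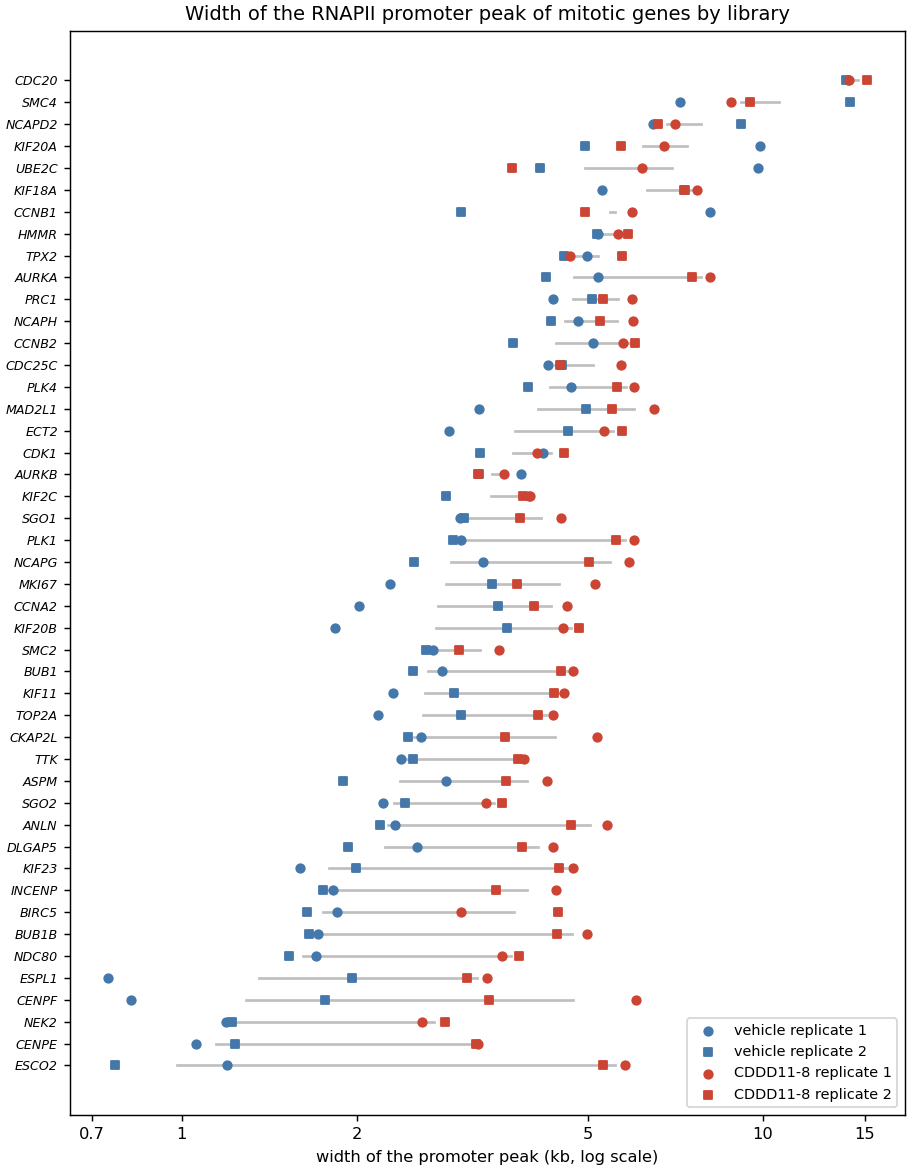
Width of the RNAPII promoter peak (kb, log scale) at the 46 mitotic genes where all 4 libraries had one. Circles are replicate 1 and squares replicate 2, blue vehicle and red CDDD11-8, and grey lines join the treatment means. The red points lie to the right of both blue points at 35 of the 46 genes.

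The height of promoter peaks relative to the other peaks of the same list was lower with CDDD11-8 or overlapped. The fold enrichment of a peak was expressed as its percentile among all peaks of its list, since fold values are scaled differently between lists. The median percentile over the 46 genes was 94.5 and 91.6 with vehicle and 86.1 and 81.0 with CDDD11-8. It was lower in both CDDD11-8 libraries at 20 genes (43.5%, background 42.2%) and higher at 0 (background 9.03%), so the lower count was close to that of all genes. The direction of the median changed with the length of the lists. With each list limited to its 21842 peaks of highest −log10 q-value, the difference changed from −9.54 to 3.10 percentile points.

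RNAPII peaks over the gene body were reduced at most mitotic genes. Gene body coverage is the percentage of bases, from 300 bp after the TSS to 3 kb past the transcription end site (TES), that lay inside a peak. It was read at the 25 genes with a length of 1 kb or more and no other protein-coding gene within 3 kb, since nearby genes add peaks of their own. The median coverage of these 25 genes was 35.5% and 28.5% with vehicle and 6.88% and 6.29% with CDDD11-8. The difference of 25.4 percentage points was larger than the SD of 4.93 points with vehicle and 0.414 points with CDDD11-8 (n = 2 each). Coverage was lower in both CDDD11-8 libraries at 18 of 25 genes (72%), compared with 21.0% of the 10183 genes that pass the same filters. It was higher at 5 (background 13.6%) and overlapped at NEK2 and KIF20B. Many of the 10183 genes carried no peak at all, so the 4012 whose promoter peak was called in every library are the closer comparison. Among these, 44.9% were lower and 24.5% higher, compared with 18 and 4 of the 24 mitotic genes that belong to them. Median coverage over the 4012 genes was 9.77% and 6.84% with vehicle, below that of the mitotic genes, and 5.52% and 4.64% with CDDD11-8.
The unequal length of the lists also entered here. With equal numbers of peaks, 12 mitotic genes were lower and 8 higher, compared with 25.6% and 42.9% of the 4012 genes, and the difference in the median was −6.72 points. CENPF, CCNB2, INCENP, MAD2L1 and KIF23 then overlapped between treatments, and BUB1 was higher.

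**Figure D2:**
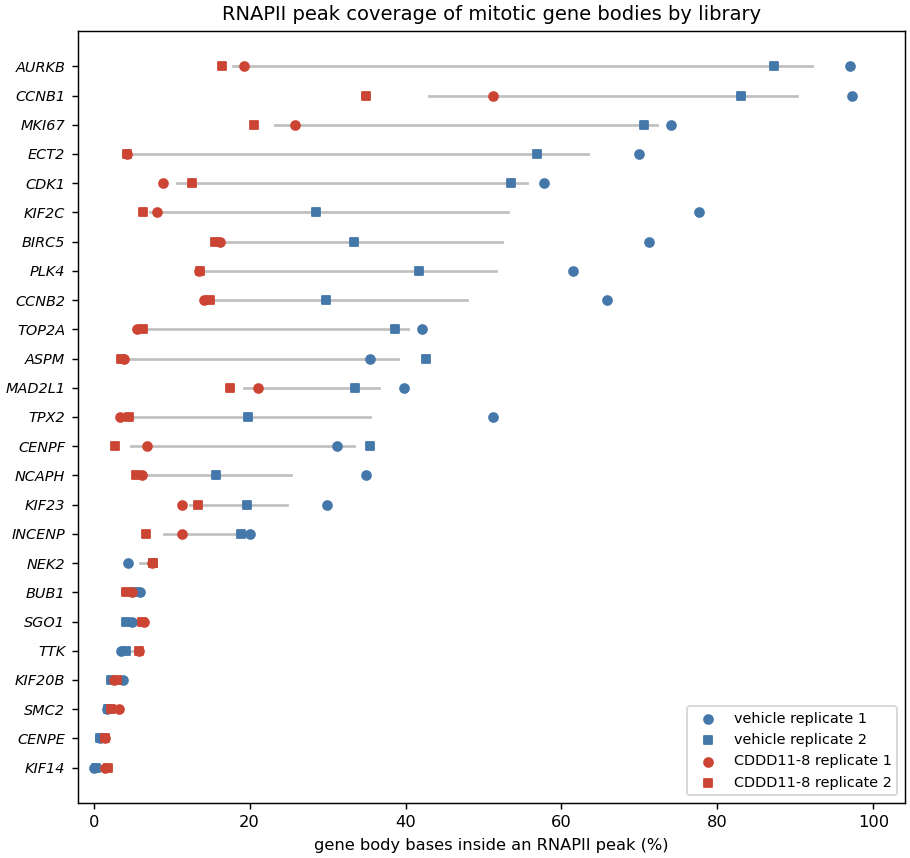
Gene body coverage (percentage of gene body bases inside an RNAPII peak) at the 25 mitotic genes that pass the length and distance filters, ordered by mean vehicle coverage. Circles are replicate 1 and squares replicate 2, blue vehicle and red CDDD11-8, and grey lines join the treatment means. All 17 genes from INCENP upwards have both red points to the left of both blue points, and the 8 at the bottom stay under 10% in every library.

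Of 9 genes of kinases and their activators, 8 had lower coverage with CDDD11-8, compared with 44.9% of the 4012 genes, and NEK2 overlapped. In these comparisons by role the 4012 genes were not matched for vehicle coverage, and shares by level of vehicle coverage are given below. AURKB, the kinase of the chromosomal passenger complex that corrects faulty attachments, had coverage of 97.0% and 87.3% with vehicle and 19.3% and 16.5% with CDDD11-8. Its difference of −74.3 points was the widest of the 25 genes. INCENP and BIRC5, the scaffold and the survivin subunit of the same complex, differed as well. INCENP had 20.1% and 18.8% with vehicle and 11.4% and 6.71% with CDDD11-8. BIRC5 had 71.2% and 33.4% and then 16.2% and 15.5%. These 3 genes were lower without overlap, although the BIRC5 vehicle libraries lay far apart and INCENP overlapped with equal numbers of peaks.
CDK1, the kinase that drives entry into mitosis, had 57.8% and 53.5% with vehicle and 8.88% and 12.6% with CDDD11-8. CCNB1 had 97.3% and 83.0% with vehicle and kept 51.2% and 34.9% with CDDD11-8, the highest coverage with the inhibitor among the 25 genes. CCNB2, a second B-type cyclin, had 65.9% and 29.9% and then 14.2% and 14.95%. CDK1 and both cyclin genes were lower without overlap. PLK4, which starts centriole duplication, and TPX2, the activator of Aurora A, were also lower, with differences of −38.1 and −31.5 points. NEK2, which separates centrosomes, had 4.43% and 7.56% with vehicle and overlapping values of 7.44% and 7.63% with CDDD11-8.
Of 6 genes of the kinetochore and spindle checkpoint, CENPF, BUB1 and MAD2L1 were lower and CENPE, TTK and SGO1 were higher with CDDD11-8. Of the 4012 genes, 44.9% were lower and 24.5% higher, so the lower count was close to that of all genes. CENPF had 31.2% and 35.5% with vehicle and 6.88% and 2.70% with CDDD11-8. MAD2L1, the checkpoint protein that holds back the anaphase-promoting complex, had 39.9% and 33.5% and then 21.1% and 17.5%. BUB1, a checkpoint kinase, had 5.89% and 5.28% and then 4.87% and 4.17%, a difference of −1.07 points. This call was lost with equal numbers of peaks, where BUB1 was higher (2.98% and 2.16% and then 4.87% and 4.17%), and with the gene body read from 2 kb to the TES, where it overlapped (0.817% and 1.23% and then 1.06% and 0.262%). At the 3 higher genes the levels were low throughout. TTK, the checkpoint kinase also called MPS1, had 3.47% and 4.09% with vehicle and 5.77% and 5.80% with CDDD11-8. SGO1, the protector of centromeric cohesin, had 4.87% and 4.10% and then 6.45% and 6.21%, but overlapped from 2 kb to the TES (1.89% and 0% and then 0.530% and 0.246%). CENPE, a kinetochore motor, had 0.850% and 0.767% and then 1.40% and 1.45%.
Among motors and spindle proteins, KIF2C, KIF23 and ASPM were lower, KIF14 was higher and KIF20B overlapped (background 44.9% lower and 24.5% higher of the 4012 genes). KIF2C, the microtubule depolymerase MCAK, had 77.7% and 28.5% with vehicle and 8.16% and 6.33% with CDDD11-8. ASPM, a spindle pole protein, had 35.5% and 42.6% and then 3.85% and 3.56%. KIF14 had 0% and 0.275% with vehicle and 1.44% and 1.82% with CDDD11-8. ECT2, the exchange factor that sets the cleavage furrow, was the only cytokinesis gene that could be read, with 70.0% and 56.8% with vehicle and 4.22% and 4.34% with CDDD11-8.
Chromosome structure genes gave 3 lower values and 1 higher (background 44.9% and 24.5% of the 4012 genes). MKI67, the gene of the Ki-67 protein that coats mitotic chromosomes, had 74.0% and 70.6% with vehicle and 25.8% and 20.6% with CDDD11-8. TOP2A, the topoisomerase that untangles sister chromatids, had 42.1% and 38.7% and then 5.53% and 6.29%. NCAPH, a condensin I subunit, had 34.9% and 15.7% and then 6.21% and 5.47%. SMC2, the core ATPase of both condensins, was higher, with 1.76% and 1.81% with vehicle and 3.24% and 2.28% with CDDD11-8. The vehicle replicates of NCAPH differed by more than those of MKI67 or TOP2A, and in all 4 genes the treatments did not overlap.

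The sign of the difference followed the coverage with vehicle. Classes and differences share the vehicle values, so this relation is partly set by construction, and each class is read beside its background. All 14 mitotic genes with mean vehicle coverage of at least 30% were lower with CDDD11-8, compared with 79.5% of 1035 genes at that level, and 0 were higher (background 3.09%). All 3 genes between 10% and 30% were lower (background 64.2% of 863, with 8.69% higher). Of the 8 under 10%, BUB1 was lower (background 20.0% of 2114) and 5 were higher (background 41.5%). The 8 genes stayed between 0% and 7.63% in every library, and the sizes of their differences were at most 2.01 points. When the gene body was read from a point 2 kb past the TSS up to the TES, 18 genes were lower and TTK alone was higher (background 39.8% and 9.82%). This window leaves out only part of the promoter peak, whose median reach downstream was 2675 and 2441 bp with CDDD11-8. At TTK all covered gene body bases lay in the promoter peak in every library.
Each of 24 mitotic genes was also set beside genes with a length within 1.5 times its own and a vehicle coverage within 10 points, which gave 29 to 707 genes each and 2661 in all. The decrease was larger than the median of the like genes at 16 of 24. The median change was −30.0 points for the mitotic genes and −23.3 points over the medians of their like genes, and the median of the paired differences was −2.02 points. Coverage was lower in both CDDD11-8 libraries at 75% of these mitotic genes, compared with an average of 67.6% of the like genes of each, or 44.2% of the 2661 genes pooled (23.9% higher). AURKB stood furthest from its like genes, with −74.3 points compared with −23.6 points for 96 genes. At MKI67 the decrease was smaller than the median of its like genes, with −49.1 compared with −53.9 points, and at CCNB1 it was near it, with −47.1 compared with −45.9 points.

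**Figure D3:**
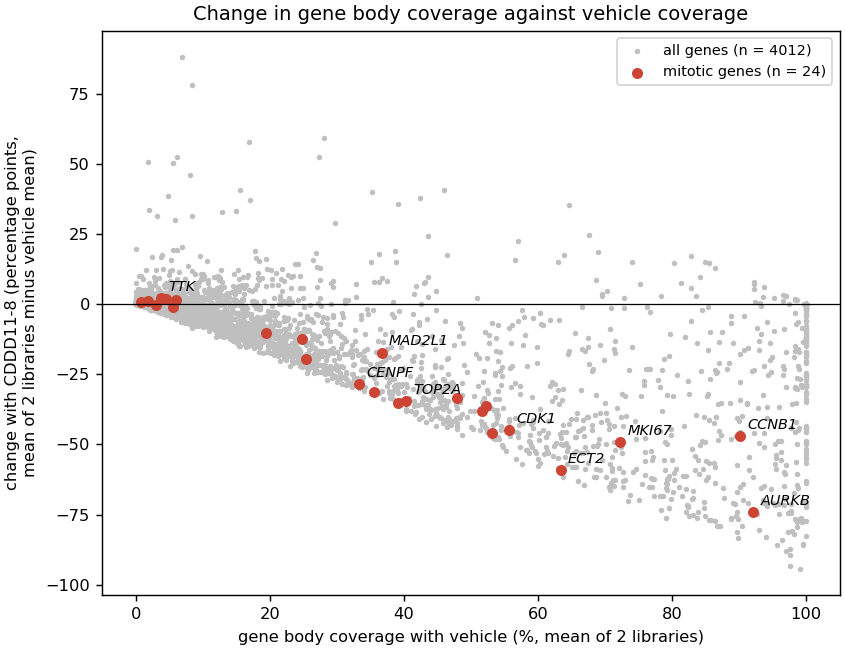
Change in gene body coverage with CDDD11-8 (percentage points) against mean vehicle coverage (%), for the 4012 genes whose promoter peak was called in every library (grey) and the 24 mitotic genes among them (red). The change is the mean of 2 CDDD11-8 libraries minus the mean of 2 vehicle libraries, so it cannot fall below minus the vehicle coverage, and the 2 axes share the vehicle values. The mitotic genes lie within the cloud of all genes, with AURKB near its lower edge.

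The loss of peaks began a few kb into the gene. Over 24 mitotic genes, leaving out KIF14, mean coverage from 1 to 2 kb after the TSS was 62.6% ± 4.29 (SD, n = 2) with vehicle, compared with 94.2% ± 1.86 after CDDD11-8. Between 2 and 5 kb, vehicle gave 34.4% ± 7.48 and CDDD11-8 gave 21.2% ± 3.24. The interval from 5 to 10 kb held 26.4% ± 9.68 and 0.779% ± 0.552, and beyond 20 kb, in the 16 genes that long, 22.8% ± 4.28 and 0.920% ± 0.139. Coverage was thus higher with the inhibitor up to 2 kb and lower from 2 kb onwards, in both libraries of each treatment. Over all 4012 genes the 1 to 2 kb interval was higher with CDDD11-8 too, with 55.1% ± 1.69 with vehicle and 78.5% ± 3.74 with CDDD11-8. From 2 to 5 kb, in 3970 of them, the treatments overlapped, with 22.3% and 20.8% and then 26.7% and 20.5%. The 5 to 10 kb interval, in 3757 of them, held 14.5% ± 3.99 with vehicle and 3.53% ± 1.18 with CDDD11-8. In the 3 kb past the TES, where RNAPII slows before termination, the mitotic genes had 51.0% ± 7.32 with vehicle and 7.75% ± 0.736 with CDDD11-8. The same interval over all genes held 34.8% ± 4.18 and 10.4% ± 2.41.

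**Figure D4:**
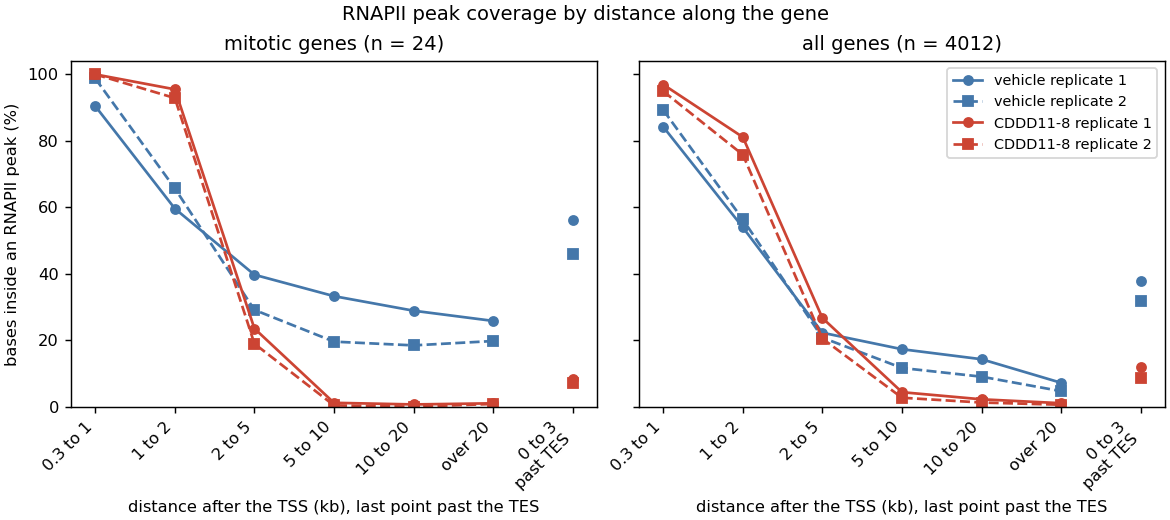
Mean percentage of bases inside an RNAPII peak by distance after the TSS (kb) and in the 3 kb past the TES, for 24 mitotic genes (left) and 4012 genes (right), in each of the 4 libraries. In the mitotic genes the CDDD11-8 lines lie above the vehicle lines up to 2 kb and near 0 from 5 kb.

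Bases outside the promoter peak accounted for this. Over the 25 genes together, 308994 and 233642 gene body bases lay inside a peak with vehicle, and 70878 and 63373 with CDDD11-8. The promoter peak itself held 12.6% and 16.1% of these bases with vehicle and 78.5% and 84.0% with CDDD11-8. Separate gene body peaks, those that do not touch the promoter window, numbered 266 and 212 with vehicle and 27 and 12 with CDDD11-8. Of the genes with a promoter peak, 8.33% and 24% had no separate gene body peak with vehicle, and 60% and 80% with CDDD11-8. Over all 10183 genes these shares were 29.4% and 37.1% with vehicle and 65.4% and 68.6% with CDDD11-8. The shares with CDDD11-8 thus bracketed those of all genes, and the shares with vehicle were lower for the mitotic genes.
At 8 of the 25 genes, separate gene body peaks were called in both vehicle libraries and in neither CDDD11-8 library, namely AURKB, PLK4, CDK1, BUB1, MAD2L1, ECT2, TOP2A and NCAPH. All 8 are among the 24 whose promoter peak was called in all libraries (33.3%), compared with 25.5% of the 4012 genes. ECT2, at chr3:172468472-172539264, went from 43 and 42 separate peaks to 0 and 0, and TOP2A, at chr17:38544777-38574148, from 17 and 17 to 0 and 0. TTK, KIF14 and SMC2 had none in any library.

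**Figure D5:**
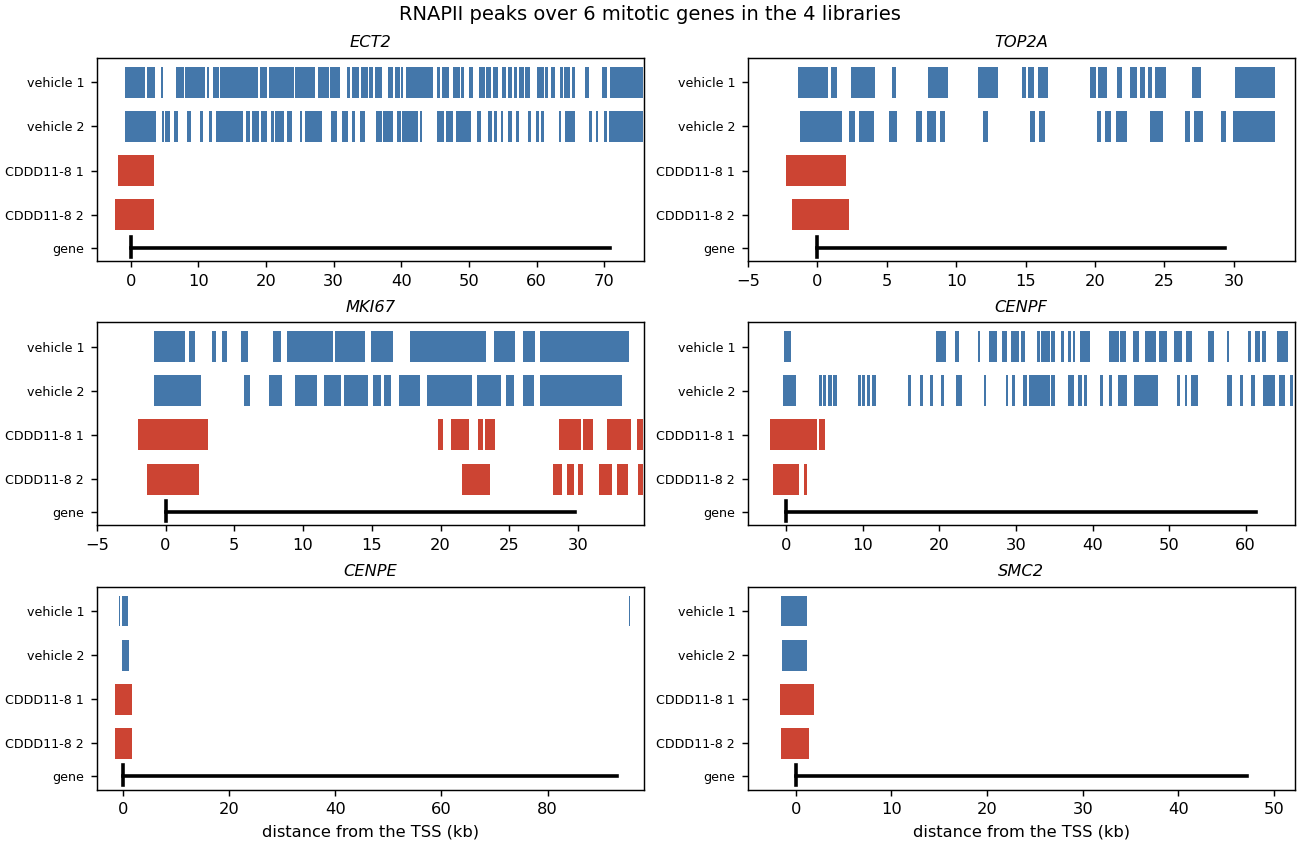
Called RNAPII peaks (bars) over 6 mitotic genes by distance from the TSS (kb), with 5 kb shown on either side of each gene, drawn as a black line with a tick at the TSS. ECT2 and TOP2A keep only the promoter peak with CDDD11-8, MKI67 keeps peaks towards its end, and CENPE and SMC2 have a promoter peak and few or no other peaks in any library.

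Separate gene body peaks were called in both CDDD11-8 libraries at CCNB1, CENPF, KIF23 and MKI67, and where they lay differed. At CCNB1, at chr5:68462977-68474072, they lay between 3.01 kb and 15.6 kb after the TSS, partly past the TES at 11.1 kb, and the promoter peak held 48.8% and 49.1% of the covered bases. At MKI67, at chr10:129894923-129924687, they began at 19.8 kb and 21.6 kb in a gene of 29.8 kb, and the promoter peak held 33.4% and 31.7%. At CENPF, at chr1:214776538-214837914, a single peak remained in each library, from 4.30 to 5.02 kb and from 2.36 to 2.73 kb. The KIF23 peak of 6272 and 6613 bp held the start of RPLP1, a ribosomal protein gene 4.39 kb past the KIF23 TES, and in both vehicle libraries a peak held that start too.
The log2 ratio of promoter to gene body, each by the strongest fold enrichment there, can be formed only where both kinds of peak exist, in all libraries at those 4 genes. It was higher in both CDDD11-8 libraries at all 4, compared with 71.8% of the 770 genes with a ratio in every library, of which 5.97% were lower. Without the length and distance filters the ratio could be formed at 12 of the 50 mitotic genes, and it was higher at 7 (58.3%) and lower at 0, compared with 63.0% and 9.48% of 2627 genes, so the higher count was close to that of all genes. The log2 ratio of CENPF was −0.92 and −0.38 with vehicle and 3.24 and 2.39 with CDDD11-8. That of CCNB1 was −0.51 and −0.77 and then 2.57 and 2.51, and that of MKI67 was −0.22 and −0.55 and then 2.68 and 1.36. With vehicle the promoter peak thus stood below the strongest gene body peak at these 3 genes, and after CDDD11-8 it stood above it. The ratio of KIF23 uses the RPLP1 peak as its gene body value and is not read further. KIF23 stays in the count of 4 and in the median log2 ratio given below, so only 3 of the 4 ratios are free of that peak.

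The other 25 mitotic genes overlap or lie close to another gene, so a peak over them can belong to the neighbour. Coverage was lower in both CDDD11-8 libraries at 15 of them and higher at 7, which brought the count over all 50 genes to 33 lower and 12 higher. Of the 9611 genes that fail the filters, 33.7% were lower and 15.9% higher, and of all 19794 genes 27.2% and 14.7%. Among the 46 mitotic genes whose promoter peak was called in all 4 libraries, 32 were lower and 9 higher, compared with 44.9% and 21.6% of 9702 genes. The 7 higher genes were CDC25C, NDC80, NUF2, SPC25, SGO2, HMMR and ESCO2, with vehicle coverage of at most 7.24% in any library. CDC25C, the phosphatase that activates CDK1, had 7.24% and 5.18% with vehicle and 11.1% and 9.23% with CDDD11-8. SPC25 had 4.78% and 2.86% and then 9.52% and 10.2%. At the canonical starts both overlapped, CDC25C with 2.14% and 0.469% and then 2.52% and 1.954%, and SPC25 with 4.62% and 1.36% and then 4.38% and 6.76%. NUF2 overlapped too at its canonical start, with 10.1% and 6.002% and then 6.11% and 6.11%, and the difference of its means changed sign there.
AURKA had coverage of 69.5% and 40.6% with vehicle and 13.9% and 13.4% with CDDD11-8. CCNA2, the cyclin of S and G2 phase, had 88.5% and 96.2% and then 24.9% and 22.3%. NUSAP1 had 85.5% and 70.4% and then 9.85% and 9.13%, and KIF20A, a motor of the central spindle, had 96.5% and 89.8% and then 29.3% and 24.4%. These 4 genes were lower without overlap.
PLK1 and CDC20 were unlike the other mitotic genes of high vehicle coverage. PLK1, which overlaps the gene ERN2, had 77.6% and 64.7% with vehicle and 77.1% and 58.0% with CDDD11-8, and the treatments overlapped. CDC20, the activator of the anaphase-promoting complex, is only 4.22 kb long and lay 100% inside a peak in all 4 libraries, a promoter peak of 13945 to 15106 bp, and ELOVL1 lies 0.195 kb away. UBE2C and ESPL1, the ubiquitin-conjugating enzyme of that complex and separase, were lower, UBE2C with 100% and 96.7% and then 61.0% and 26.1%. SMC4, the second condensin ATPase, had 98.7% in both vehicle libraries and 46.6% and 39.996% with CDDD11-8. Its separate gene body peaks numbered 2 in each vehicle library and 21 and 14 with CDDD11-8, so the nearly continuous coverage with vehicle was broken up.

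Genes outside the 50 that act in the same processes were read in the same way, from a list of 103. At 102 of them every library had a promoter peak, which was wider with CDDD11-8 at 79 (background 64.4%) and narrower at 5 (background 9.42%). Coverage could be read at 46 and was lower with CDDD11-8 at 33 and higher at 4, compared with 44.9% and 24.5% of the 4012 genes, and overlapped at 9. The 4012 genes were not matched to these lists for vehicle coverage. Among 8 other motor, spindle and cytokinesis genes, 7 were lower, with the largest decrease at CKAP2, a spindle protein, from 95.5% and 83.6% to 14.4% and 13.8%. CEP55, an abscission factor, overlapped, with 4.93% and 3.51% and then 5.46% and 3.32%. Among 9 cohesin and condensin genes, 8 were lower, and CDCA5, the cohesin protector sororin, had 34.8% and 26.9% and then 4.15% and 0%. CDCA5 had no promoter peak in CDDD11-8 replicate 2, so it is not among the 4012 genes. Its promoter peak was 8500 and 2569 bp wide with vehicle and 729 bp in CDDD11-8 replicate 1. STAG2, a cohesin subunit, was higher, with 1.60% and 1.27% and then 2.22% and 2.36%.
Of 10 genes of the anaphase-promoting complex and mitotic entry, 7 were lower and 1 was higher, compared with 44.9% and 24.5% of the 4012 genes. ENSA, an inhibitor of the phosphatase PP2A-B55 in mitosis, had 98.5% and 96.8% and then 26.9% and 20.3%, while the subunit ANAPC4 had 2.33% and 2.28% and then 3.82% and 3.20%. Of 7 genes of the transcription factors that drive mitotic genes, 6 were lower, and MYBL2, which encodes B-MYB, had 40.5% and 12.2% and then 3.99% and 3.98%. LIN54, the CHR-binding subunit of the same complexes, had 6.20% and 1.64% and then 2.37% and 2.39%, which overlapped. Of the 12 other kinetochore and checkpoint genes, 5 were lower, 2 higher and 5 overlapping, so the lower count was close to the 44.9% of the 4012 genes. In this list CENPM had 93.5% and 89.2% and then 20.2% and 20.6%, and CENPW had 6.55% and 3.32% and then 13.0% and 17.8%. The examples from these lists were picked for the largest decrease, the smallest decrease or largest rise, or the highest vehicle coverage. They therefore cannot show how the change relates to vehicle coverage.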

How the data were processed

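RNAPII ChIP-seq libraries of MDA-MB-453 cells were made with vehicle or 600 nM CDDD11-8 (4 h, 2 libraries each). Bowtie 2 was used by the authors for alignment to GRCh37, and peaks were called per library with MACS2 at default settings against a paired input, in versions not given in the sources used here. Replicates were not pooled. The authors' pileup is a signal at each summit, the deposited fold enrichment is a ratio to local background, and the deposited p-value and q-value are on the −log10 scale, with region length in bp. The smallest −log10 q-value was 2.00. Read totals are not in these lists, so depth is unknown. The 4 inputs served only in the authors' peak calling.

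Summits of the same region were joined into 1 peak with their highest fold enrichment. Genes were the protein-coding genes of GENCODE release 44 mapped to GRCh37, longest isoform. Promoter (300 bp either side of the TSS), gene body (from 300 bp downstream of the TSS until 3 kb beyond the TES) and filters (1 kb length, 3 kb distance) were adapted from the study's methods. Promoter sequence was read from GRCh37. Fold values were compared between libraries only as percentiles within a list or as ratios formed within a library. Libraries were compared by groups that do not overlap and by an exact two-sided permutation test over 6 splits, and lists by counts beside the share of all genes. The members and gene lists were chosen with earlier results of these data known. Named in full were the best-known mitotic regulators, in each role the genes of highest vehicle coverage, largest and smallest change, and every gene without a promoter peak or with higher coverage. KIF20A, CCNA2, CDC20, SMC4, UBE2C, BUB1B and KIF23 were named after their values were seen. Coverage, peak joining and windows were tested on simulated peaks. Same-numbered libraries did not deviate together (correlation of deviations across 4012 genes −0.061 for coverage, and −0.014 across 9702 genes for log2 width), so the numbers were not taken as pairs. The software was Python 3.11.15 with pandas 2.3.3 for tables, numpy 2.4.6 for arrays, scipy 1.17.1 for tests and matplotlib 3.10.9 for plots.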

Additional observations from a re-analysis of the deposited data

How the results depend on the processing

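The main counts and medians of the mitotic genes, the coverage and promoter peak width of the genes named in full and the counts of promoter letters were recomputed with other peak thresholds, windows, isoforms and units, with each replicate left out and with a replicate block, as far as each choice applies. The reach of peaks, the profile along the gene, the comparison with like genes and the genes outside the 50 were not. With equal numbers of peaks per list, the difference in the median fold percentile reversed to 3.10 points and that in the median gene body coverage became −6.72 points. The latter was −16.0 points at a −log10 q-value of at least 5, −19.4 points with the canonical isoform and −32.3 points with regions within 1 kb merged. Merging also gave a median width difference of 1048 bp, with 21 genes wider, and the share of all genes at this setting is not given. It reversed the width difference of AURKA (−2996 bp), CDK1 (−3594.5 bp), HMMR (−1911 bp) and ECT2 (−1199.5 bp). The differences of AURKB and CCNB1 became −9746.5 and −9325.5 bp. With CDK1 and HMMR, these 2 genes were then narrower in both CDDD11-8 libraries, so the absence of narrower genes depended on this setting. Without the length and distance filters, 33 genes were lower in coverage, the share without a separate gene body peak differed by 40.9 points and the log2 ratio by 2.35. With each summit taken on its own these were 12.5 points and 1.63. The log2 ratio ranged from 2.29 to 3.03 with a replicate left out, the lowest without CDDD11-8 replicate 1.
Among single genes, the PLK1 coverage difference was 9.98 points with equal numbers of peaks, 4.92 at a −log10 q-value of at least 5, and −13.2 to 5.95 with a replicate left out, positive without vehicle replicate 1 (2.81) or CDDD11-8 replicate 2 (5.95). NEK2 gave −4.49 points with the gene body from 2 kb and −0.028 without vehicle replicate 1, SGO1 gave −0.56 with the gene body from 2 kb, and NUF2 gave −1.94 with the canonical isoform. With a replicate left out, width differences ranged from −427.5 to 166.5 bp for AURKB and from −2660.5 to 2430.5 bp for CCNB1, positive without vehicle replicate 1 or CDDD11-8 replicate 2 (48 and 383.5 bp). They ranged from −40 to 1074 bp for KIF2C, negative without vehicle replicate 2. The coverage differences of CENPE, NDC80, KIF14 and SMC2 became 0 with the gene body from 2 kb, the other recomputed values of single genes kept their direction, and 66 of 79 recomputed main results stayed within the limits set for them. The replicate block gave 36 genes wider and 18 lower in coverage. With it, PLK1 coverage was lower and NEK2 coverage higher in both same-numbered comparisons, whereas without it the treatments overlapped. Same-numbered libraries were not shown to be pairs, however, and 2 pairs cannot give an exact p below 0.5. The cause of these changes was not tested, except that equal numbers of peaks remove the weaker vehicle peaks by construction. Depth, antibody efficiency and the scaling of the CDDD11-8 lists limit every comparison of covered bases.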
